A study of Oryza sativa with 60 samples.

Results

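The miR444 family was followed through rice anther development in counts of mature miRNAs. Its members were the entries named osa-miR444 followed by a character other than a digit, and 7 of the 582 entries met that rule. They were miR444a-5p, miR444a-3p.1, miR444a-3p.2, miR444bc.1, miR444bc.2, miR444d.3 and miR444f. Merged names such as bc cover precursors that share a mature sequence, and the numbers after the point mark different mature products of a precursor. All plants were wild-type Oryza sativa of the cultivar Kitaake, grown in a greenhouse, and each library came from pooled anthers, 20 to 30 per sample, with no allele or treatment that set groups apart. The 30 small RNA libraries fell into 10 anther lengths with 3 replicates each. The labels do not say whether replicates came from separate plants, so p-values measure the spread between these samples.

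miR444 is a family of grasses whose precursors are transcribed antisense to MADS-box genes, and it guides the cleavage of mRNAs of the MIKC-type MADS-box factors OsMADS23, OsMADS27 and OsMADS57. In rice vegetative tissue the family is known for roles in nitrate and phosphate responses, in tillering, and in antiviral defence through relief of OsMADS repression of an RNA-dependent RNA polymerase gene. miRNAs of the same arm that start at shifted positions carry different seeds and can direct cleavage at different places.

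The length of a library was given in 2 ways that disagreed. Titles and count-table names put the same 3 libraries together, but title and name gave the same length for 0 of 30 libraries. The tables named 0.4, 0.6 and 0.8 mm were titled 1.8, 2.0 and 2.5 mm. Those named 1.0, 1.2 and 1.4 mm were titled 0.4, 0.6 and 0.8 mm, and those named 1.6, 1.8, 2.0 and 2.5 mm were titled 1.0, 1.2, 1.4 and 1.6 mm. Lengths below are those of the table names, where a bare 4, 6 or 8 was read as 0.4, 0.6 or 0.8 mm. The names' first 3 lengths form the early window (9 libraries), the next 3 the middle window (9 libraries) and the last 4 the late window (12 libraries). By title, the same windows run middle, late, early, so each direction with length given here applies to the order of the names. Which order is the true one was not tested.

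Libraries held between 7527 and 584897 miRNA reads, and levels are given as CPM, the reads of an entry scaled to a fixed total of miRNA reads, where 3 reads stood for 5.13 CPM in the deepest and 399 CPM in the shallowest library. Intervals and floors cover counting error only. In 6 libraries, called doubted here, the total was under 20000 or the correlation with the rest of the own group over entries outside miR444 was under 0.8. They were 0.8 mm replicate 1, 1.0 mm replicate 3, 1.6 mm replicate 3, 1.8 mm replicate 2 and 2.0 mm replicates 2 and 3, and the other libraries correlated at 0.845 to 0.978. In 1.6 mm replicate 3 miR168a-5p took 65.8% of miRNA reads, and in 2.0 mm replicate 2 miR1856 took 66.0%. Another reference set was named for 4 libraries, 1.0 mm replicate 3 and the 3 of 1.6 mm. A model term for that set could be estimated only within 1.0 mm. It rests on replicate 3, a doubted library, against replicates 1 and 2. Anthers hold several cell types, and fewer cells of a type and less RNA per cell cannot be told apart.

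miR444bc.2 made up most of the family. Summed over libraries the family held 163954 reads, 1.98% of all miRNA reads, and miR444bc.2 held 85.6% of them. It averaged 17206 CPM over the 30 libraries and ranked 14 among the 582 entries. miR444bc.1, the other product of the same precursors, held 9.33% of family reads and averaged 2168 CPM. miR444a-3p.2 averaged 603 CPM, miR444d.3 averaged 258 CPM, miR444a-5p averaged 207 CPM and miR444f averaged 53.1 CPM. miR444a-3p.1 had 47 reads in all and at most 5 in a library. It was the only member that did not pass the filter on low counts, which 371 entries passed. Levels of different entries are reads, with no correction for how well each sequence was recovered in library preparation.

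miR444bc.2 had 6579, 6184 and 3401 CPM in the replicates of 0.4 mm, 7642, 9135 and 10564 CPM in those of 0.6 mm, and 8370 (from 63 reads), 5061 and 11980 CPM in those of 0.8 mm. It had 3644, 16627 and 515 CPM in the replicates of 1.0 mm, 24959, 14075 and 5038 CPM in those of 1.2 mm, and 18888, 23163 and 24979 CPM in those of 1.4 mm. It had 36936, 58075 and 455 CPM in the replicates of 1.6 mm, 31902, 3214 and 50486 CPM in those of 1.8 mm, 2814, 327 and 36088 CPM in those of 2.0 mm, and 27793, 39974 and 27297 CPM in those of 2.5 mm. The early libraries lay close together, and the late ones fell into a high set of 8 and a low set of 4 with nothing between 3214 and 27297 CPM. Of the 12 late libraries 8 were above the highest early library and 4 were below the lowest. Means were 7657 ± 2693 CPM in the early, 14654 ± 9493 CPM in the middle and 26280 ± 20118 CPM in the late window (SD, n = 9, 9 and 12).

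miR444bc.1 had fewer CPM in later windows. Its replicates had 2438, 4226 and 2739 CPM for 0.4 mm, 3923, 4292 and 2913 CPM for 0.6 mm, and 2524, 1669 and 3069 CPM for 0.8 mm. Those of the middle window had 1005, 2591 and 1020 CPM for 1.0 mm, 3364, 3715 and 1817 CPM for 1.2 mm, and 2802, 3037 and 1646 CPM for 1.4 mm. Those of the late window had 1934, 2419 and 390 CPM for 1.6 mm, 1046, 824 and 2241 CPM for 1.8 mm, 729, 42.7 and 2433 CPM for 2.0 mm, and 2106, 1197 and 901 CPM for 2.5 mm. No late library reached the highest early one, and 7 of 12 were below the lowest early one. Means were 3088 ± 891 CPM in the early, 2333 ± 999 CPM in the middle and 1355 ± 833 CPM in the late window (SD, n = 9, 9 and 12).

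**Figure D1:**
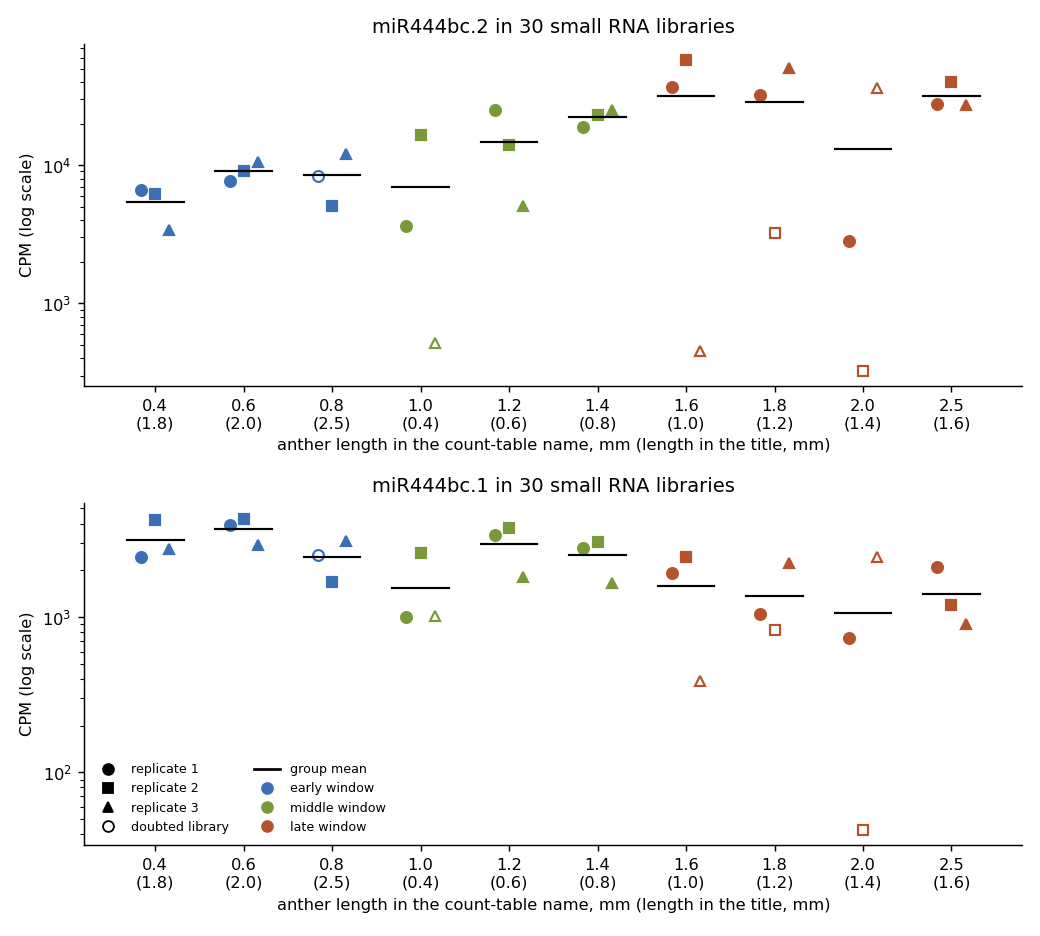
CPM of miR444bc.2 (upper) and miR444bc.1 (lower) on log axes in each library, by the anther length in the table name with the title's length in brackets; points are replicates, open points the 6 doubted libraries, and bars group means. Of the 12 late libraries, 8 have more miR444bc.2 than any early library, while no late library exceeds the early maximum of miR444bc.1.

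Because both entries come from one library, their ratio does not depend on the scaling of libraries. The ratio of miR444bc.2 to miR444bc.1 averaged 1.80 ± 0.785, 2.57 ± 0.922 and 3.42 ± 0.444 in the 3 early groups in order of length, and 3.52 ± 2.96, 4.66 ± 2.44 and 9.85 ± 4.64 in the 3 middle groups (SD, n = 3 each). In the 4 late groups it averaged 14.8 ± 12.0, 19.0 ± 13.6, 8.78 ± 5.58 and 25.6 ± 10.9 (SD, n = 3 each). The mean ratio was lower than at the length before it in the table names at 2.0 mm only, but on the log2 scale it was lower at 1.0, 1.6 and 2.0 mm, and the ranges of all 9 pairs of neighbours in order of level overlapped. Over windows it was 2.60 ± 0.952 early, 6.01 ± 4.20 middle and 17.0 ± 11.3 late, and without the doubted libraries 2.51, 6.70 and 22.1. The highest early ratio was 3.90, and 9 of 12 late and 5 of 9 middle libraries were above it. The ratio was 1.17 in 1.6 mm replicate 3 and 0.505 in 1.0 mm replicate 3, where miR444bc.1 outnumbered miR444bc.2. miR444bc.2 took from 26.1% of family reads in 1.0 mm replicate 3 (95% Wilson interval 20.3% to 32.9%) to 93.9% in 2.5 mm replicate 2 (93.5% to 94.2%). The ratio was computed over members and has no test. In title order the highest group mean, at 1.6 mm, stands next to the lowest, at 1.8 mm.

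**Figure D2:**
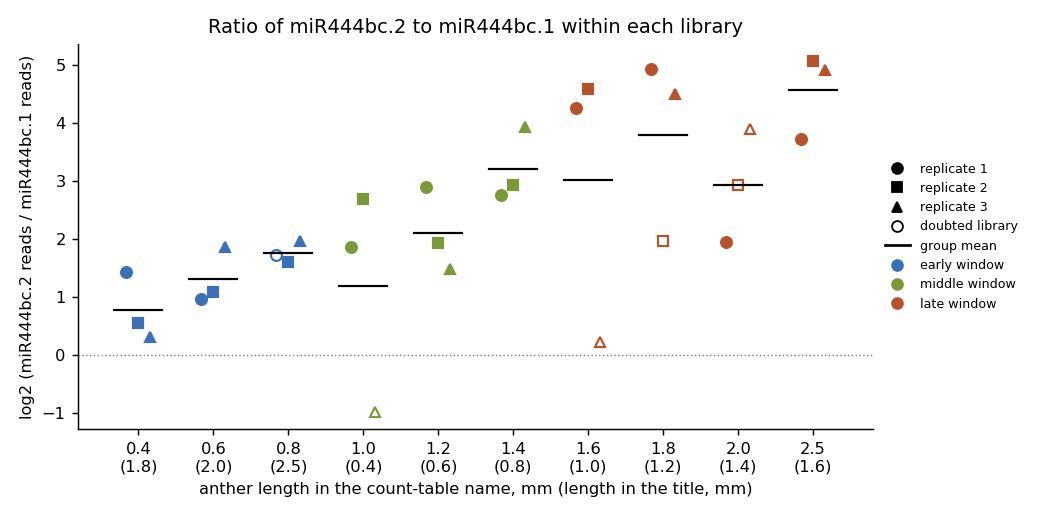
Log2 ratio of miR444bc.2 reads to miR444bc.1 reads in each library by the anther length in the table name (title's length in brackets); points are replicates, open points the doubted libraries, bars group means. The early libraries lie between 0.31 and 1.96, and the late ones between 0.22 and 5.06.

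miR444a-3p.2, the third most abundant member, had 526, 252 and 170 CPM in the 0.4 mm libraries, 430, 342 and 439 CPM in the 0.6 mm ones, and 399 (3 reads), 311 and 676 CPM in the 0.8 mm ones. In the middle window it had 18.0, 421 and 75.2 CPM for 1.0 mm, 1375, 357 and 193 CPM for 1.2 mm, and 520, 351 and 340 CPM for 1.4 mm. In the late window it had 1945, 2988 and 52.5 CPM for 1.6 mm, 1105, 147 and 2090 CPM for 1.8 mm, 166, 44.5 and 652 CPM for 2.0 mm, and 581, 625 and 488 CPM for 2.5 mm. Of the 12 late libraries 4 were above and 4 below the whole early range, so the late values enclosed the early ones.

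The other members had lower levels. miR444d.3 averaged 178 ± 98.6 CPM early, 207 ± 99.9 CPM in the middle and 356 ± 326 CPM late. miR444a-5p, from the other arm of the miR444a precursor, averaged 166 ± 105 CPM early, 124 ± 82.8 CPM in the middle and 300 ± 137 CPM late. Of its late libraries 4 of 12 exceeded the highest early one, at 343 CPM. miR444f averaged 15.2 ± 9.07 CPM early, 49.8 ± 44.0 CPM in the middle and 84.0 ± 81.0 CPM late (SD, n = 9, 9 and 12 for each entry). For miR444f 7 of 12 late and 6 of 9 middle libraries exceeded the highest early library, at 30.7 CPM. Its counts were small, 433 reads in all and 71 at most, and 3 libraries had 0 reads. Each early library had between 0 and 6 reads of it.

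**Figure D3:**
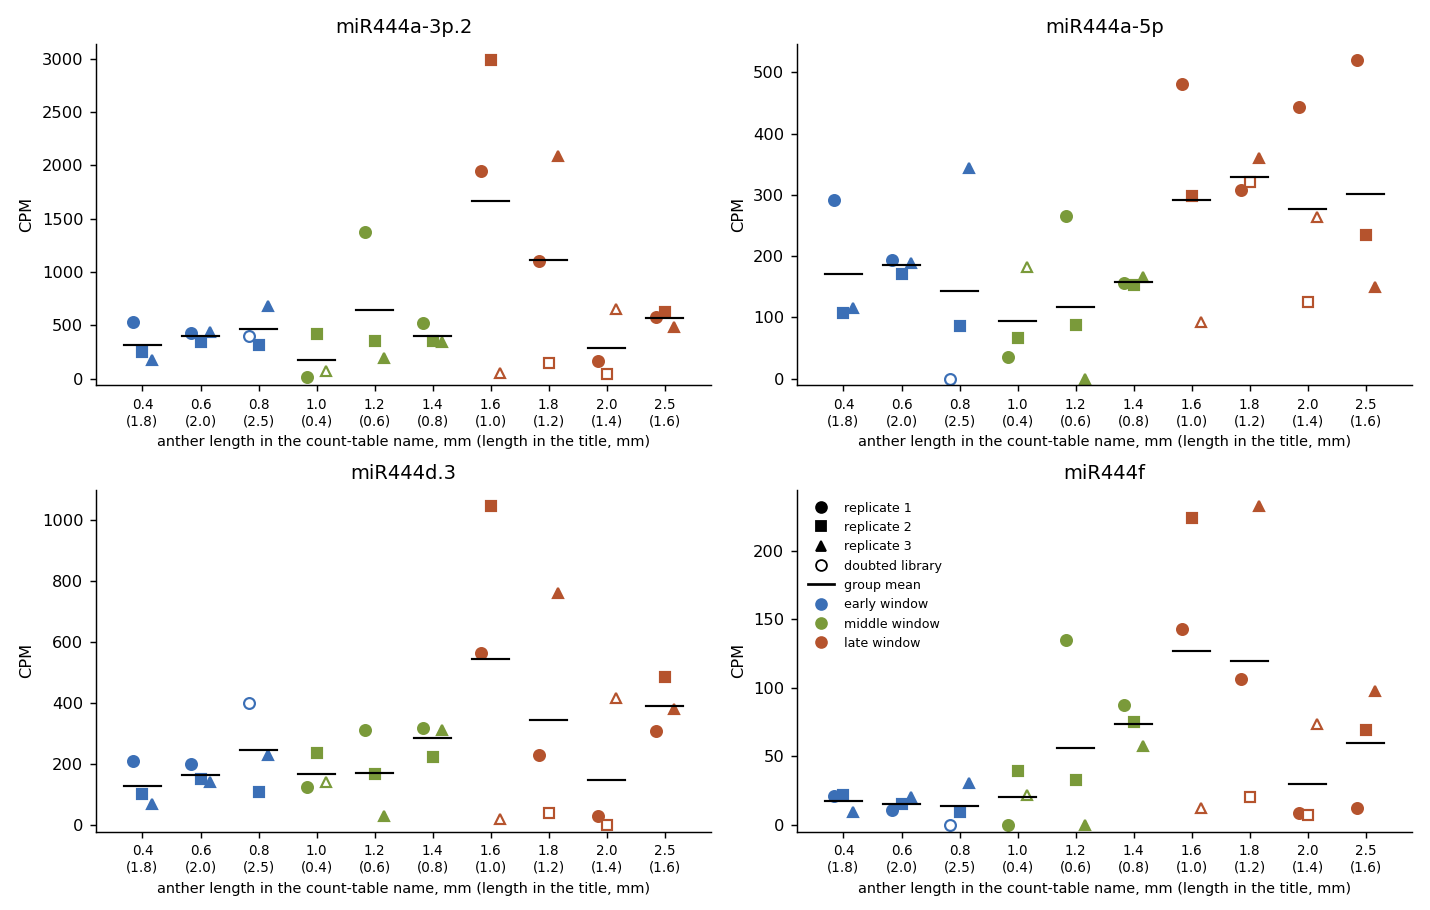
CPM of miR444a-3p.2, miR444a-5p, miR444d.3 and miR444f in each library by the anther length in the table name (title's length in brackets); points are replicates, open points the doubted libraries, bars group means. The highest values of miR444a-3p.2 (2988 CPM), miR444d.3 (1046 CPM) and miR444f (233 CPM) lie at 1.6 and 1.8 mm, beside replicates of the same lengths near the bottom of each panel.

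The family sum averaged 9160 ± 2334, 13596 ± 1022 and 11757 ± 4546 CPM in the 3 early groups in order of length, and 8929 ± 9678, 18641 ± 11668 and 25761 ± 2601 CPM in the 3 middle groups (SD, n = 3 each). In the 4 late groups it averaged 36025 ± 32430, 31819 ± 25923, 14894 ± 21764 and 34413 ± 7153 CPM (SD, n = 3 each). From high to low the order of lengths was 1.6, 2.5, 1.8, 1.4, 1.2, 2.0, 0.6, 0.8, 0.4 and 1.0 mm. In that order the ranges of neighbours overlapped in 9 of 9 pairs and every gap was within the larger SD. The same held for each of the 7 entries in its own order. Sorting by level sets the nearest means side by side, so the ranks are loose, and groups further apart were not compared this way.

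Libraries of a single length differed widely in miR444. The summed family had 1976 CPM in 1.0 mm replicate 3, 1023 CPM in 1.6 mm replicate 3, 4576 CPM in 1.8 mm replicate 2, 4192 CPM in 2.0 mm replicate 1 and 552 CPM in 2.0 mm replicate 2, against 65051 CPM in 1.6 mm replicate 2. With miR168a-5p and miR1856 taken out of the totals these libraries still had 4014, 3201, 6870, 7346 and 3113 CPM, against 74974 CPM in 1.6 mm replicate 2. In all 5, reads of miR444a-3p.2 were fewer than those of miR444a-5p, at a ratio of 0.356 to 0.566. Elsewhere that ratio was at least 1.12 where both were detected, apart from 1.0 mm replicate 1 with 1 and 2 reads. Over entries outside the family, 1.8 mm replicate 2 was closest to 2.0 mm replicate 1 (r = 0.945) and 1.0 mm replicate 3 to 1.6 mm replicate 3 (r = 0.885), both from other groups. This was not particular to low miR444. With a family sum of 39937 CPM, 2.0 mm replicate 3 was closest to 2.5 mm replicate 3 (r = 0.959). With 56183 CPM, 1.8 mm replicate 3 was closest to 1.6 mm replicate 2 (r = 0.944). Of the 5 low libraries 4 are among the doubted ones. The next library up, 1.0 mm replicate 1, had 4829 CPM, or 6355 CPM with miR168a-5p and miR1856 taken out, and is not doubted. The part of library quality in the low miR444 was not tested.

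A change over the 10 groups was tested with edgeR's quasi-likelihood test, adjusted by Benjamini-Hochberg over the 371 entries. It does not depend on which length a group is given. Of the 6 members 1 passed at an adjusted p of 0.05, while 67.4% of all entries did. That was miR444f (adjusted p = 0.0228, edgeR), and miR444a-3p.2 missed at 0.0673 and miR444bc.2 at 0.155. Without the doubted libraries all but miR444a-5p passed, 5 members in all, with edgeR adjusted p of 3.99e-05 for miR444bc.2 and 0.0347 for miR444bc.1, while 81.7% of all entries passed in that fit. Leaving out 1.8 mm replicate 3 took miR444f to an adjusted p of 0.0574 in edgeR.

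Between the late and the early window 3 of 6 members were called, at an adjusted p under 0.05 and a log2 fold change of 1 or more in size. Of all entries 72.2% were called, 48.0% higher and 24.3% lower. With DESeq2 5 of 6 members were called, against 83.0% of all entries. DESeq2 called 251 entries higher and 57 lower, and edgeR 178 and 90. miR444bc.2 rose by a log2 fold change of 1.86 (SE 0.64, edgeR adjusted p = 0.0100). Leaving out 2.0 mm replicate 3 gave 1.16 and an adjusted p of 0.0630 in edgeR. miR444f rose by 2.20 (SE 0.61, edgeR adjusted p = 0.00214), from early libraries with at most 6 reads of it each. miR444bc.1 fell by 1.09 (SE 0.40, edgeR adjusted p = 0.0152), but with DESeq2 its log2 fold change was 0.15. Leaving out single libraries moved it between -1.43 and -0.65, and 13 of 30 such fits lost the call. It was also not called with a model term for the reference set (-0.81, edgeR adjusted p = 0.146), which rests on 1.0 mm replicate 3. Nor was it called without miR168a-5p and miR1856 in the counts (-0.75) or with library totals over all entries (-0.94). The last of these fits was run first, and the reported one was chosen after both were seen. miR444a-3p.2, miR444d.3 and miR444a-5p had log2 fold changes of 1.04, 1.11 and 0.91, with edgeR adjusted p of 0.0808, 0.0964 and 0.0564. Without the doubted libraries the 3 calls were kept, at 1.45 for miR444bc.2, 1.92 for miR444f and -1.16 for miR444bc.1 (edgeR adjusted p of 0.000561, 0.00400 and 0.00277). Without the 4 libraries of the other reference set miR444bc.2 was at 2.04 and miR444f at 2.32, and miR444bc.1 was at -0.76 and no longer called.

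The median of all entries was itself 1.11 higher on the log2 scale in the late window, and 2.58 higher with DESeq2. Against that median the log2 fold change of miR444bc.2 differed by 0.75, that of miR444f by 1.09 and that of miR444bc.1 by -2.20. With DESeq2 these differences were 0.40, 0.86 and -2.42. The distances of miR444a-3p.2, miR444a-5p and miR444d.3 from the median in edgeR were -0.07, -0.19 and 0.00. The gap between the fold changes of miR444bc.2 and miR444bc.1 was 2.95 late against early, 1.65 late against middle and 1.30 middle against early. It has no test. With windows drawn by the titles' lengths the late against early comparison called 0 of 6 members, with log2 fold changes of -0.51 for miR444bc.2 and -1.13 for miR444f.

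Between the late and the middle window 1 of 6 members was called, against 47.2% of all entries, 27.2% higher and 19.9% lower (101 and 74 entries, and 212 and 36 with DESeq2). miR444a-5p rose by 1.17 (SE 0.44, edgeR adjusted p = 0.0283), a call that was lost without any one of 1.0 mm replicates 1 and 2, 1.2 mm replicate 2 or 2.5 mm replicate 1. With a model term for the reference set miR444a-5p was not called (1.04, edgeR adjusted p = 0.0713) and miR444bc.2 was (1.72, edgeR adjusted p = 0.0438), and with no filter on low counts miR444a-5p had an adjusted p of 0.0690 in edgeR. miR444bc.1 had a log2 fold change of -0.90 in edgeR (adjusted p = 0.0623) and of 0.0078 in DESeq2. Between the middle and the early window 0 of 6 members were called in edgeR, against 28.0% of all entries, 15.4% higher and 12.7% lower (57 and 47 entries, 102 and 36 with DESeq2, and 38 and 57 with no TMM factors). At an unadjusted p of 0.05, 1 member passed, miR444f with a log2 fold change of 1.66 (edgeR adjusted p = 0.0614), and DESeq2 called 2. miR444bc.2 was 1.11 higher there (edgeR adjusted p = 0.204). Without the doubted libraries the log2 fold changes lay between -0.60 (miR444a-5p) and 1.69 (miR444f), with miR444bc.2 at 1.19.

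Over the 9 steps between neighbouring lengths, 8 of which are also steps in title order, 0 of 54 member tests were called in edgeR, against 0.779% of all tests. At an unadjusted p of 0.05, 3 of the 54 passed, and DESeq2 called 1. The share of all tests called with DESeq2 is not given here, so its 1 call has no background beside it. Without the doubted libraries 1 library was left at 2.0 mm, and its spread was taken from the other groups. Log2 fold changes from 1.8 to 2.0 mm then lay between -4.79 (miR444f) and -0.09 (miR444a-5p). From 2.0 to 2.5 mm they lay between -0.67 (miR444a-5p) and 3.74 (miR444d.3).

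**Figure D4:**
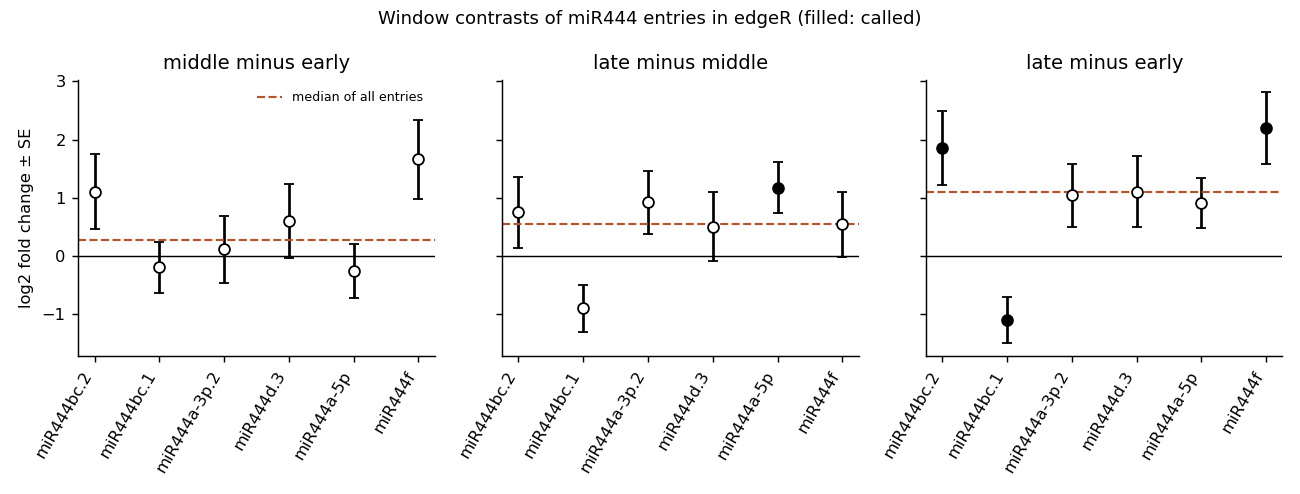
Log2 fold change ± SE (edgeR) of the 6 tested miR444 entries between windows; filled points are called, and the dashed line is the median of all 371 entries. Late against early, miR444bc.2 (1.86) and miR444f (2.20) lie above the median of 1.11, and miR444bc.1 (-1.09; 0.15 with DESeq2) lies below it.

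Members were compared by the Pearson correlation of mean log2 CPM over the 10 groups, as a description over points that share libraries and depth. miR444bc.2 was most like miR444a-3p.2 (r = 0.82), miR444d.3 and miR444f (both 0.77), and little like miR444bc.1 (0.29). Outside the family the entries most like miR444bc.2 were miR162b (0.90), miR396c-5p (0.89), miR167ac-5p (0.88), miR396e-3p (0.86) and miR5794 (0.85). Those most like miR444bc.1 were miR5490 (0.94), miR5837.1 (0.91), miR5487 (0.90), miR5499 (0.90) and miR5796 (0.89). The leading 5 of the 2 products had no entry in common. miR444a-3p.2 was most like miR396e-3p (0.94), miR535-3p (0.81), miR1863a (0.77), miR1425-3p (0.76) and miR164abf (0.75), and the family sum most like miR162b (0.89), miR167ac-5p (0.88), miR396e-3p (0.86), miR396c-5p (0.86) and miR535-3p (0.84).

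miRNAs of the nitrate, phosphate and antiviral responses in which miR444 is known were counted beside it. Of 22 tested entries of miR528, miR168, miR162, miR393, miR399, miR827 and miR169, 15 were higher and 1 lower late against early, with a median log2 fold change of 2.01, beside 48.0% higher and 24.3% lower among all entries. miR393b-5p, which targets auxin receptors, rose by 2.76 (SE 0.42, edgeR adjusted p = 1.16e-06). miR528-5p, which targets an ascorbate oxidase gene, averaged 944 ± 1046 CPM in the late and 4501 ± 4185 CPM in the middle window (SD, n = 12 and 9). It fell by 2.53 between them (SE 0.59, edgeR adjusted p = 0.000767). In that comparison 10 entries of the list were higher and 2 lower, beside 27.2% higher and 19.9% lower among all entries. Late against early the log2 fold change of miR528-5p was -0.94 (edgeR adjusted p = 0.136). Of 29 tested entries of the floral and phase change families miR156, miR172, miR529, miR159, miR319, miR164 and miR167, 12 were higher and 5 lower late against early, with a median of 0.32. Among all entries 48.0% were higher and 24.3% lower. miR156adei, which targets SPL genes, rose by 3.47 (SE 0.37, edgeR adjusted p = 2.18e-09), and miR172b, which targets AP2-type genes, by 3.00 (SE 0.49, edgeR adjusted p = 4.31e-06). For the most abundant tested entries of the other families, log2 fold changes were 3.12 (miR164abf), 2.88 (miR167dehi-5p) and 2.17 (miR529b). They were -0.44 for miR159a.1 (edgeR adjusted p = 0.403) and -0.70 for miR319a-3p.2-3p (edgeR adjusted p = 0.242). The median of the 6 miR444 members in the same comparison was 1.07, and that of all entries 1.11.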

How the data were processed

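Per the labels' protocols, Tri-reagent was used to extract the RNA of 20 to 30 anthers, and small RNA libraries were made with the RealSeq-AC V2 kit, using 16 PCR cycles and a size selection on gels. As deposited, values are raw counts of reads per mature miRNA entry. Each library has 2 such tables, equal in all 30 cases, and the table of all reads was taken. The submitters' processing notes name cutadapt 3.0 and Bowtie2 2.5.2 among other tools. How multiply matching reads were counted is not given in these sources, so reads of near-identical members may be split or shared. miRNA reads were 0.675% to 2.51% of the reads of a table in the 26 libraries that list unassigned reads. The 30 mRNA libraries were not used here.

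CPM was taken over all miRNA reads of a library. Counts were fitted in edgeR 4.0.16 in R 4.3.3 (filterByExpr, library sizes summed over the 371 entries kept, TMM, glmQLFit, glmQLFTest) with the 10 groups as 1 factor, and windows were averages of group coefficients. Calls needed a Benjamini-Hochberg adjusted p under 0.05 over 371 entries and, for contrasts, a log2 fold change of 1 or more in size. The fit was tested on simulated counts. DESeq2 1.42.0 was an alternative. All members were accounted for, with values per library for the 3 most abundant. Likeness used log2 CPM with a prior count of 2 and names the 5 nearest entries. No replicates were identical (smallest chi-square per degree of freedom 4.02). The members, lists and windows were chosen with earlier results of these data known. The fit was run first with library totals over all entries, and sizes over kept entries were taken after both were seen. The limits for doubted libraries, and the fits without them, without miR168a-5p and miR1856 and with totals over all entries were chosen after seeing the data.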

Additional observations from a re-analysis of the deposited data

Results flagged for a closer look

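The early and middle windows (9 libraries each, over 3 lengths) were searched for single libraries far from the others by Dixon's ratio at its 95% critical value, for the 7 entries, their sum, the ratio of miR444bc.2 to miR444bc.1 and the share of miR444bc.2. Of 20 sets of values 6 had such a library. The critical value assumes independent values from 1 normal population, while each set pooled 3 lengths and some rest on few reads. The sum, ratio and share also reuse the entries, so the 6 cannot be set against a chance rate. In the early window these were miR444a-3p.1 in 0.6 mm replicate 1 at 21.0 CPM, from 4 reads, and miR444d.3 in 0.8 mm replicate 1 at 399 CPM, from 3 reads in the shallowest library. In the middle window miR444a-3p.1 had 21.5 CPM in 1.0 mm replicate 3, from 2 reads, and miR444a-3p.2 had 1375 CPM in 1.2 mm replicate 1, with 520 CPM in the next library. The ratio of miR444bc.2 to miR444bc.1 was 15.2 in 1.4 mm replicate 3, with 7.63 in the next library. The share of miR444bc.2 in family reads was 26.1% in 1.0 mm replicate 3, with 71.2% in the next library, and this library is among the doubted ones.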

How the results depend on the processing

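The number of members passing the test over all groups (1) was 0 with no TMM factors and 0 with no filter on low counts. It was 2 with a model term for the reference set, 3 without the 4 libraries of the other set, 5 without the doubted libraries, 2 without miR168a-5p and miR1856 in the counts, 5 with DESeq2, and 0 to 5 when single libraries were left out. Among all entries 67.4% passed in the reported fit, and in these fits 60.6%, 41.4%, 68.7%, 80.9%, 81.7%, 75.2% and 89.5%. The count for middle against early (0) was 1 without the 4 libraries, 1 with windows by title and 2 in a fit of the 2 windows alone. It was 1 without miR168a-5p and miR1856, 2 with DESeq2, 1 with library totals over all entries, and 0 to 1 over single libraries. Among all entries 28.0% were called in the reported fit, and in the named fits 28.3%, 43.9%, 35.6%, 29.7%, 37.2% and 30.7%. The fit without the doubted libraries, which leaves 1 library at 2.0 mm, had miR444bc.2 at 1.19 and miR444f at 1.69 there. In it miR444a-5p was at -0.60 and miR444bc.1 at -0.18. The count for late against middle (1) was 0 with no filter, 5 with DESeq2 and 0 to 2 over single libraries. There 47.2% of all entries were called in the reported fit, 32.5% with no filter and 66.8% with DESeq2. The count for late against early (3) was 0 with windows by title, 5 without miR168a-5p and miR1856, 5 with DESeq2 and 2 to 5 over single libraries, and also 2 with a model term for the reference set, 4 without the 4 libraries and 4 with library totals over all entries. Of all entries 11.6%, 79.8%, 83.0%, 51.2%, 80.9% and 76.5% were called in the 6 named fits, and none of the 6 called miR444bc.1. The calls over 9 steps (0) were 7 without the doubted libraries, 1 with DESeq2 and 0 to 2 over single libraries. Apart from miR444a-3p.2 from 1.4 to 1.6 mm, the step calls without the doubted libraries fell at the steps to and from 2.0 mm. Those steps rest on 1 library, 2.0 mm replicate 1, which was among the low miR444 libraries. The share of all step tests called in that fit is not given here, so its count has no background beside it. With windows by title the early mean of the family sum was 17777 CPM. There the count of all entries called was 43 late against early and 163 middle against early, in place of 268 and 104. The causes were not tested.

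Directions also turned. Middle against early, miR444a-3p.2 was -0.13 with no TMM factors and -0.16 with no filter (0.11 in the reported fit), with -0.32 to 0.39 over single libraries. There miR444a-5p was 1.17 with windows by title and 0.22 with DESeq2 (-0.52 to 0.14 over single libraries), and miR444bc.1 was 0.15 with DESeq2 (-0.30 to 0.027). With windows by title, late against middle, the log2 fold changes were -0.94 for miR444a-3p.2, -0.68 for miR444a-5p, 0.91 for miR444bc.1, -1.09 for miR444bc.2, -0.56 for miR444d.3 and -1.69 for miR444f. Late against early they were -0.51 for miR444bc.2, -0.21 for miR444d.3 and -1.13 for miR444f. miR444d.3 late against middle lay between -0.29 and 0.79 over single libraries. With DESeq2 miR444bc.1 was 0.0078 late against middle and 0.15 late against early. Its late against early call was also lost without any of 1.0 mm replicate 2, 1.2 mm replicate 1, 1.4 mm replicates 1 and 3, 1.6 mm replicate 1, 2.0 mm replicate 2, 0.4 mm replicates 2 and 3, 0.6 mm replicates 1 to 3 and 0.8 mm replicates 2 and 3. The call of miR444f late against early was kept in 30 of 30 such fits.

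Deviations of same-numbered replicates correlated at a mean r of -0.006 over 135 pairs (-0.62 to 0.79), and those of different numbers at 0.003 over 270 pairs. Of the 30 libraries 15 were on average most like those of their own number, among 3 numbers. With the replicate block 1, 0, 1 and 3 members were called over all groups, middle against early, late against middle and late against early, as without it. Depth limits miR444a-3p.1 most, which was detected in 18 of 30 libraries, and then miR444f and miR444a-5p, which had 0 reads in 3 and 2 libraries.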
